A study of Mus musculus with 16 samples.

Results

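The Notch pathway lets neighbouring cells instruct each other. A ligand of the Delta or Jagged type on one cell binds a Notch receptor on the next, the receptor is cut, and its intracellular domain enters the nucleus, where it joins the DNA-binding protein RBPJ and a Mastermind-like coactivator to switch on target genes such as those of the Hes and Hey families. Hes and Hey proteins are repressors of the genes that drive neuronal differentiation, and in the subventricular zone (SVZ) of the adult brain Notch signalling is known for keeping neural stem cells undifferentiated.

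The 10 genes described here were chosen by symbol as receptors (*Notch1*, *Notch2*, *Notch3*), ligands (*Dll1*, *Dll3*, *Jag1*), targets (*Hes1*, *Hes5*, *Hey1*) and a coactivator (*Maml3*), out of 30386 genes in the expression table. All 10 were found. They were measured in neural stem/progenitor cells (NSPCs) grown as non-adherent cultures from the SVZ of mice of 3 months of age, strain C57BL/6 J/Babr, in medium with EGF and FGF2. *Dbx2*-NSPCs carry a constitutively expressed transgene for the homeobox factor Dbx2, and *GFP*-NSPCs, the controls, carry a GFP transgene in the same kind of plasmid, which also holds a puromycin resistance gene used to select both. Each group has 8 samples with replicate numbers 1 to 8, from lines kept as bulk cultures. The study used 2 independently made pairs of lines with 4 experiments each, but no label ties a replicate number to a line, so numbers 1 to 4 and numbers 5 to 8 are called replicate sets here and nothing more. The comparison asks what a raised *Dbx2* level does to the transcriptome of these cells, over all samples and within each replicate set. As each transgene is carried by its own lines, an effect of the transgene and a difference between lines cannot be told apart.

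Expression was measured by reads near the 3′ end of transcripts and is given as CPM, the read count scaled to the total of the library, in libraries of 1804660 to 3294875 reads, so that a gene near 1 CPM rests on a few reads. Because the reads come from transcript ends, CPM were not divided by gene length. Differences were tested with limma on log2(CPM + 0.5) over the 12533 genes that exceeded 1 CPM in 4 or more samples, with Benjamini-Hochberg adjustment and a threshold of 0.05, and every log2 fold change is on that scale, *Dbx2*-NSPCs against *GFP*-NSPCs. All 10 genes passed the filter, *Maml3* only through its values in *Dbx2*-NSPCs. *Dbx2* itself ran from 30.7 to 171 CPM in *GFP*-NSPCs and from 114 to 232 CPM in *Dbx2*-NSPCs, a difference of 1.26 on the log2 scale (limma adjusted p = 0.00978). It was higher by 0.54 in replicates 1 to 4 (limma adjusted p = 0.0213) and by 1.99 in replicates 5 to 8 (limma adjusted p = 1.78e-09), and these differed (limma adjusted p = 1.04e-04). The sources used here do not say how far reads of the transgene are counted in the *Dbx2* row. Its values therefore cannot be split into transgene and endogenous mRNA. All 8 markers of neural stem and progenitor cells that were examined, among them *Sox2* and *Nes*, were present in both groups. Of these, *Egfr* and *Fabp7* were lower in *Dbx2*-NSPCs over all samples (limma adjusted p = 0.00433 and 0.0149), and the others were not called. *Cldn5*, *Cdh5*, *Aif1* and *Mog*, which mark endothelial cells, microglia and oligodendrocytes, were at 0 in every sample. In bulk samples, fewer cells of a type and less RNA per cell cannot be told apart.

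Over all samples, 1 of the 10 Notch genes was called, *Maml3*, against 15.8% of all genes tested (8.03% for upregulated genes alone). As *Maml3* passed the filter only through its values in *Dbx2*-NSPCs, its calls are no support for a change. Within the replicate sets more of the 10 genes changed, and 3 changed differently in the sets. In replicates 1 to 4, *Maml3* was upregulated and *Dll3*, *Hes5* and *Hey1* were downregulated, which makes 4 of 10 against 20.5% of all genes (10.6% upregulated and 9.85% downregulated). Leaving *Maml3* out, the calls in this set are the 3 downregulated genes. In replicates 5 to 8, *Maml3*, *Dll3* and *Notch1* were upregulated, 3 of 10 against 20.7% of all genes (10.5% upregulated). Leaving *Maml3* out, the calls in this set are *Dll3* and *Notch1* alone. The fold changes of *Dll3*, *Hes5* and *Hey1* differed between the sets by the test of the difference itself, 3 of 10 against 9.44% of all genes (4.40% with a higher fold change in replicates 5 to 8). The sign of the fold change was opposite in the sets for 7 of the 10, called or not, against 37.7% of all genes. The median log2 fold change of the 10 genes was 0.03 over all samples, -0.20 in replicates 1 to 4 and 0.30 in replicates 5 to 8, while that of all tested genes was -0.02, -0.04 and -0.01. The number of the 10 with a fold change above 0 was 4 in replicates 1 to 4 and 9 in replicates 5 to 8. These medians and numbers include *Maml3*.

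**Figure D1:**
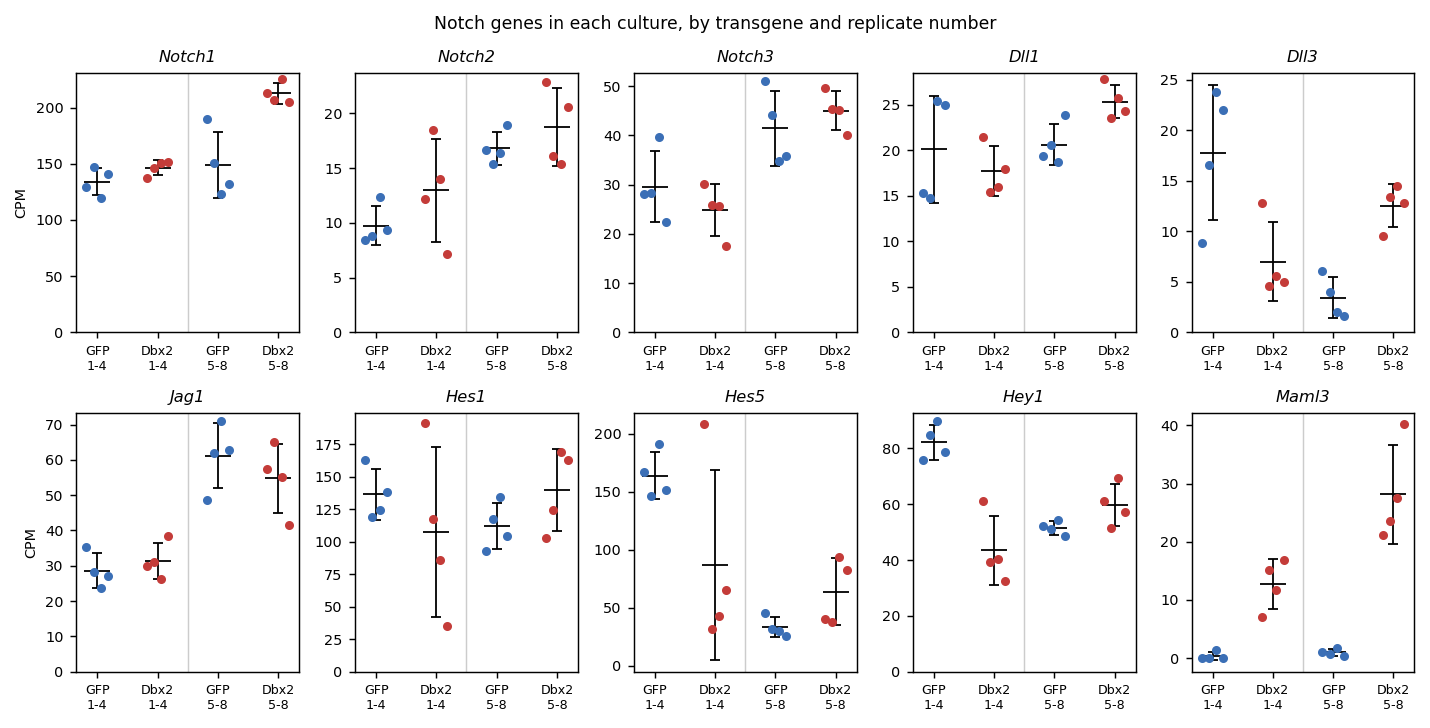
CPM of the 10 Notch genes (vertical axes, linear and including 0) in each culture, for GFP-NSPCs (blue) and Dbx2-NSPCs (red) of replicates 1 to 4 and 5 to 8. Points are samples, horizontal bars are means and whiskers are 1 SD (n = 4). Maml3 was near 0 in all GFP-NSPC samples, and the order of the groups for Dll3 turned round between the replicate sets.

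**Figure D2:**
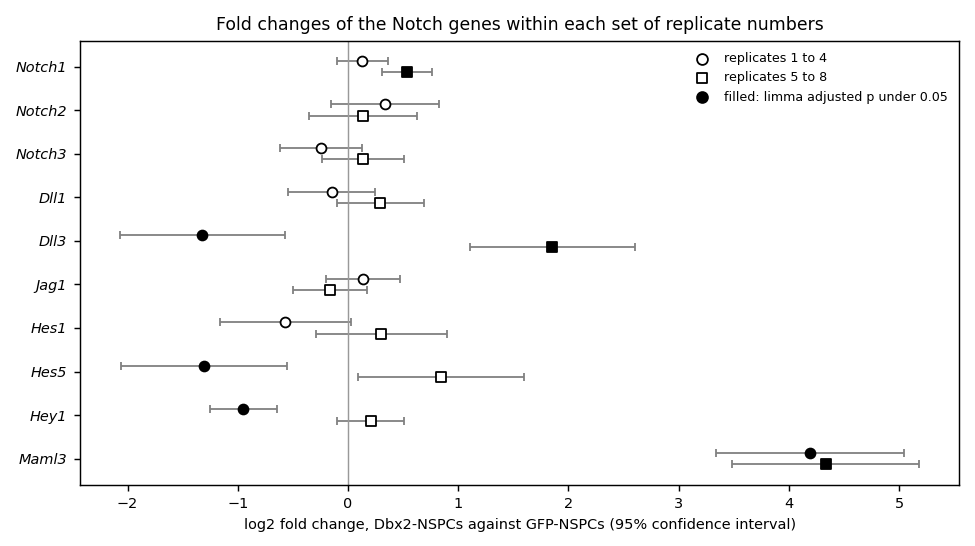
Log2 fold change of each Notch gene (horizontal axis) between Dbx2-NSPCs and GFP-NSPCs within replicates 1 to 4 (circles) and 5 to 8 (squares), with 95% confidence intervals from limma. Filled symbols passed an adjusted p of 0.05, and for Dll3, Hes5 and Hey1 the circle and the square lie on opposite sides of 0.

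*Maml3* encodes a Mastermind-like protein, one of the coactivators that bind the complex of the Notch intracellular domain and RBPJ. It lies on the minus strand of chr3:51685907-52105076 (GRCm38). In *GFP*-NSPCs replicates 1 to 4 it measured 0, 0, 1.30 and 0 CPM, and in replicates 5 to 8 it measured 1.11, 0.61, 1.71 and 0.41 CPM. In *Dbx2*-NSPCs it measured 7.06, 15.18, 11.72 and 16.86 CPM in replicates 1 to 4. The values of *Dbx2*-NSPCs replicates 5 to 8 were 21.12, 23.61, 27.54 and 40.18 CPM. Each *Dbx2*-NSPC sample was thus above each *GFP*-NSPC sample, a separation found for 3.41% of all genes (1.60% in this direction). The log2 fold change was 4.26 (SE 0.38, limma adjusted p = 4.39e-07), and it was 4.19 in replicates 1 to 4 (limma adjusted p = 5.54e-08) and 4.33 in replicates 5 to 8 (limma adjusted p = 1.97e-08). *Maml3* passed the filter only through its values in *Dbx2*-NSPCs. These calls and the separation are therefore descriptions and no support for a change. The difference between the sets was 0.14, with a 95% confidence interval of -1.06 to 1.34 (limma adjusted p = 0.927), and its sign turned with the pseudocount.

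As the *GFP*-NSPC values of *Maml3* rest on few reads, the size of its fold change depends on the pseudocount, and the log2 value ran from 2.99 with a pseudocount of 2 to 5.42 with 0.1. The reads themselves give a ratio without a pseudocount. Over the pooled libraries, 471 reads in *Dbx2*-NSPCs stood against 14 in *GFP*-NSPCs, a ratio of rates of 31.2 with an exact 95% interval of 18.4 to 57.5 that covers counting error only. The ratio was 36.0 (13.8 to 134) in replicates 1 to 4 and 29.3 (15.7 to 61.7) in replicates 5 to 8. In 3 *GFP*-NSPC libraries no read was found, and in 6 of 8 there were at most 3. Among *Dbx2*-NSPCs, the level was higher in replicates 5 to 8 (28.1 ± 8.47 CPM, SD, n = 4) than in replicates 1 to 4 (12.7 ± 4.33 CPM, SD, n = 4), with no overlap, as was the case for 19.8% of all genes.

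The genes around *Maml3* did not share its increase. Of the nearest 5 tested genes on each side, 0 were upregulated and 1 was downregulated over all samples by limma. Of these 10, 1 was upregulated in replicates 5 to 8. The annotation places 15 other genes within or across *Maml3*. Of these, 2 had a row in the table, *Gm37229* and *Gm20089*, both on the opposite strand, and were at 0 CPM in every sample. The rest, most of them on the strand of *Maml3*, had no row, so no level can be given for them. The other Mastermind-like coactivators had other patterns. *Maml2* averaged 104 and 94.2 CPM in *GFP*-NSPCs (replicates 1 to 4 and 5 to 8) and 89.9 and 72.2 CPM in *Dbx2*-NSPCs, a log2 fold change of -0.29 over all samples (limma adjusted p = 0.0424). *Maml1* averaged 3.44 to 5.71 CPM in the 4 groups and was not called (log2 fold change -0.78, 95% confidence interval -1.54 to -0.02, limma adjusted p = 0.162). *Rbpj*, the DNA-binding partner, averaged 36.3 to 43.3 CPM in the 4 groups, and its log2 fold change was 0.03 with a 95% confidence interval of -0.21 to 0.27.

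*Dll3* encodes a divergent Delta-like ligand that is held largely inside the cell and is known to dampen Notch signalling in the cell that makes it. It lies on the minus strand of chr7:28293553-28302238. In replicates 1 to 4 it measured 8.86, 16.58, 23.79 and 21.99 CPM in *GFP*-NSPCs, compared with 12.84, 4.55, 5.54 and 5.02 CPM in *Dbx2*-NSPCs. Replicates 5 to 8 measured 6.10, 3.99, 2.05 and 1.64 CPM in *GFP*-NSPCs, compared with 9.50, 13.36, 14.45 and 12.83 CPM in *Dbx2*-NSPCs. In the first set the groups overlapped through a single pair of samples, both numbered 1, and in the second all *Dbx2*-NSPC samples were above all *GFP*-NSPC samples, as for 12.2% of all genes (24.8% in either direction). The reads behind the lowest of these values, in *GFP*-NSPCs replicates 7 and 8, were 6 and 4.

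*Dll3* was downregulated in replicates 1 to 4, with a log2 fold change of -1.32 (SE 0.36, limma adjusted p = 0.0106), and upregulated in replicates 5 to 8, with 1.85 (SE 0.36, limma adjusted p = 4.81e-04). Calls in opposite directions in the sets were made for 1.76% of all genes, and among the 10 Notch genes only for *Dll3*. The difference between the sets was 3.17 (SE 0.51, limma adjusted p = 1.06e-04). Over all samples these changes left a log2 fold change of 0.27 with a 95% confidence interval of -0.73 to 1.26 (limma adjusted p = 0.757), whose sign turned in edgeR and DESeq2. Fitted on its own samples, the decrease in replicates 1 to 4 passed the threshold without a replicate block (limma adjusted p = 0.0302) and did not with one (limma adjusted p = 0.0635). The levels of the control cultures also differed between the sets: *GFP*-NSPCs averaged 17.8 ± 6.70 CPM in replicates 1 to 4 and 3.45 ± 2.05 CPM in replicates 5 to 8 (SD, n = 4), a ratio of 5.17, without overlap. Such a separation of the *GFP*-NSPC sets was found for 28.9% of all genes.

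Means of the neuronal genes *Rbfox3*, *Dcx*, *Snap25* and *Syt1* were lower in *Dbx2*-NSPCs in replicates 1 to 4 and higher in replicates 5 to 8, as were those of *Dll3*. Those of *Tubb3*, the other neuronal marker examined, were not lower in *Dbx2*-NSPCs in either set. *Rbfox3*, a nuclear protein of neurons, averaged 5.56 CPM in *GFP*-NSPCs, compared with 1.05 CPM in *Dbx2*-NSPCs of replicates 1 to 4. Its means in replicates 5 to 8 were 0.88 CPM in *GFP*-NSPCs, compared with 9.85 CPM in *Dbx2*-NSPCs. *Dcx*, a microtubule protein of migrating neuroblasts, averaged 4.07, 0.0825, 0.205 and 4.74 CPM in the same 4 groups in that order. In that order too, *Snap25* averaged 2.2, 0.40, 0.24 and 0.35 CPM, *Syt1* 3.59, 2.36, 0.215 and 0.78 CPM, and *Tubb3* 13.5, 13.8, 16.8 and 17.2 CPM. Means near or under 1 CPM rest on a few reads. The summed level of the 5 markers ran from 13.3 to 40.1 CPM in *GFP*-NSPCs and from 12.8 to 24.4 CPM in *Dbx2*-NSPCs of replicates 1 to 4. In replicates 5 to 8 it ran from 14.4 to 24.6 CPM in *GFP*-NSPCs and from 27.6 to 41.5 CPM in *Dbx2*-NSPCs, with no overlap. The part of neuronal cells in the *Dll3* result was not tested.

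The other ligands changed less. *Dll1*, a Delta-like ligand that activates Notch on the neighbouring cell, lies on the minus strand of chr17:15367354-15376872. It measured 14.8 to 25.4 CPM in *GFP*-NSPCs (median 19.97) and 15.5 to 27.8 CPM in *Dbx2*-NSPCs (median 22.6), with a log2 fold change of 0.07 and a 95% confidence interval of -0.25 to 0.40. Its values in the sets were -0.15 (95% confidence interval -0.54 to 0.25) and 0.29 (-0.10 to 0.69), and neither was called. The lincRNA gene *A930024N18Rik* overlaps it on the opposite strand and reached at most 1.95 CPM. As the strand used in counting is not given in the sources used here, reads of such a pair cannot be told apart.

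*Jag1*, the Jagged-type ligand, lies on the minus strand of chr2:137081456-137116644. It was not called in any comparison of the transgenes, and its level differed between the replicate sets. In *GFP*-NSPCs it averaged 28.6 ± 4.93 CPM in replicates 1 to 4 and 61.2 ± 9.22 CPM in replicates 5 to 8, and in *Dbx2*-NSPCs 31.4 ± 5.05 and 54.7 ± 9.75 CPM (SD, n = 4 each). The sets did not overlap in either group, and *GFP*-NSPCs had a ratio of 2.14 between the set means and *Dbx2*-NSPCs one of 1.74. Counted in each group by itself, the sets were separated for 28.9% of all genes in *GFP*-NSPCs and 19.8% in *Dbx2*-NSPCs. Between the transgenes the log2 fold change was -0.02, with a 95% confidence interval of -0.53 to 0.50, and its sign turned with the scaling. Within the sets it was 0.13 (95% confidence interval -0.20 to 0.47) and -0.16 (-0.50 to 0.17).

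Of the receptors, *Notch1* changed in 1 set. It lies on the minus strand of chr2:26457903-26516663. In replicates 1 to 4 it measured 128.92, 146.72, 119.58 and 140.63 CPM in *GFP*-NSPCs, compared with 137.42, 146.29, 150.44 and 151.77 CPM in *Dbx2*-NSPCs. In replicates 5 to 8 it measured 189.51, 150.29, 123.29 and 131.60 CPM in *GFP*-NSPCs, compared with 212.60, 207.18, 225.27 and 205.28 CPM in *Dbx2*-NSPCs. The groups overlapped in the first set and did not in the second, where *GFP*-NSPC replicate 5 stood above the other *GFP*-NSPC samples. Such a separation in replicates 5 to 8 was found for 12.2% of all genes in this direction and for 24.8% in either direction. The log2 fold change was 0.13 in replicates 1 to 4 (95% confidence interval -0.10 to 0.36) and 0.53 in replicates 5 to 8 (SE 0.11, limma adjusted p = 8.91e-04), which is 1.45-fold. The difference between the sets was 0.40 and did not pass the threshold (limma adjusted p = 0.119), though it was 0.52 without *GFP*-NSPC replicate 5 (limma adjusted p = 0.0159).

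Over all samples, the *Notch1* log2 fold change was 0.33 (SE 0.12, limma adjusted p = 0.0669). Blocked by replicate number, the same value had a limma adjusted p of 0.0252. It also passed without *GFP*-NSPC replicate 5 (0.39, limma adjusted p = 0.0268) and without *Dbx2*-NSPC replicate 1 (0.38, limma adjusted p = 0.0364), and over 28 alternatives the adjusted p ran from 0.00721 to 0.128, with 9 under the threshold. Of the 28, 16 left out a single sample, and 2 of these were under it. With the replicate set as a covariate the adjusted p was 0.00971 in limma and 0.00721 in edgeR, the latter added after the data were seen.

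*Notch2* and *Notch3* encode further receptors of the family and were not called in any comparison. *Notch2*, on the plus strand of chr3:98013527-98150361, measured 8.46 to 18.9 CPM in *GFP*-NSPCs (median 13.9) and 7.18 to 22.9 CPM in *Dbx2*-NSPCs (median 15.8). Its log2 fold change was 0.24, with a 95% confidence interval of -0.24 to 0.71. *Notch3*, on the minus strand of chr17:32120820-32166852, measured 22.3 to 51.0 CPM in *GFP*-NSPCs (median 35.3) and 17.6 to 49.6 CPM in *Dbx2*-NSPCs (median 35.2). Its log2 fold change was -0.06, with a 95% confidence interval of -0.49 to 0.38 and a sign that turned in DESeq2. Levels also differed between the replicate sets. Without overlap, *Notch2* was higher in replicates 5 to 8 of *GFP*-NSPCs (16.8 against 9.75 CPM on average) and *Notch3* in those of *Dbx2*-NSPCs (45.1 against 24.8 CPM). The sets were separated for 28.9% of all genes in *GFP*-NSPCs and for 19.8% in *Dbx2*-NSPCs.

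The targets *Hes1*, *Hes5* and *Hey1* encode basic helix-loop-helix repressors. *Hes5* lies on the plus strand of chr4:154960923-154962371. The 250 bases before its start in RefSeq (GRCm38.p6, plus strand, chr4:154960673-154960922) are shown because they hold the letters bound by RBPJ, GTGGGAA, at 2 places, printed in capitals, once on each strand, where the minus strand reads as the reverse complement:
Hes5 promoter: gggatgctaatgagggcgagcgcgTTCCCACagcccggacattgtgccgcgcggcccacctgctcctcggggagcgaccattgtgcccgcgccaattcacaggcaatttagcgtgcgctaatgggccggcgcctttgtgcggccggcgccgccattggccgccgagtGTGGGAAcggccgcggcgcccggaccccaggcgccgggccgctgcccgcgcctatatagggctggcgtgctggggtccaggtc

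The matches begin 226 and 83 bases before the start. Of 32851 mouse promoter windows of this length, 5.42% hold at least 1 match on either strand and 0.161% hold 2 or more. Promoter windows were matched for 8 of the 10 genes, 9 windows in all, and the RBPJ letters were in that of *Hes5* alone. A site of Hes and Hey proteins, CACGTG, is held by 6.02% of windows and a homeodomain core, TAATTA, by 4.84%, each counted on both strands, and neither was in any of the 9. Another Hes site, with the letters CACNAG and held by 36.7% of windows, was in those of *Notch1*, *Notch2* and *Notch3*. These matches are letters in a window and not measured binding.

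*Hes5* measured 167.19, 146.02, 190.94 and 151.29 CPM in *GFP*-NSPCs, compared with 208.05, 31.56, 42.98 and 65.66 CPM in *Dbx2*-NSPCs of replicates 1 to 4. Its values in replicates 5 to 8 were 45.44, 31.90, 30.05 and 25.50 CPM in *GFP*-NSPCs, compared with 40.13, 37.90, 93.90 and 82.72 CPM in *Dbx2*-NSPCs. In the first set 3 *Dbx2*-NSPC samples were far below all *GFP*-NSPC samples and *Dbx2*-NSPC replicate 1 was above them all. In the second set the groups overlapped through *GFP*-NSPC replicate 5. The log2 fold change was -1.30 in replicates 1 to 4 (SE 0.36, limma adjusted p = 0.0117) and 0.84 in replicates 5 to 8 (SE 0.36, limma adjusted p = 0.107), and the difference between the sets was 2.15 (SE 0.52, limma adjusted p = 0.00662). Over all samples it was -0.23, with a 95% confidence interval of -1.21 to 0.75.

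The decrease of *Hes5* in replicates 1 to 4 depended on single samples and on the tool. Without *Dbx2*-NSPC replicate 1 its log2 fold change was -1.86 (limma adjusted p = 1.36e-05). Without *Dbx2*-NSPC replicate 2 it was -0.95 (limma adjusted p = 0.0601) and without replicate 3 it was -1.10 (limma adjusted p = 0.0547). On whole reads it was -0.88 in edgeR (adjusted p = 0.0779) and -0.87 in DESeq2 (adjusted p = 0.242). The value of replicates 5 to 8 passed when that set was fitted alone, both without a replicate block (limma adjusted p = 0.0371) and with one (limma adjusted p = 0.0418). As for *Dll3*, the control cultures differed between the sets, with means of 164 ± 20.2 CPM and 33.2 ± 8.58 CPM (SD, n = 4), a ratio of 4.93 without overlap. Such a separation of the *GFP*-NSPC sets was found for 28.9% of all genes.

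The genes beside *Hes5* on chromosome 4 moved the other way. Of the nearest 5 tested genes on each side, all 10 had a log2 fold change above 0 in replicates 1 to 4, where 6 were upregulated by limma against 10.6% of all genes. In replicates 5 to 8 all 10 were below 0, and 6 were downregulated against 10.2% of all genes. *Pank4*, whose midpoint is 10.9 kb from that of *Hes5*, had 0.50 and -1.001 in the sets, and *Ski*, a transcriptional corepressor gene 227 kb away, had 0.87 and -0.80. These 2 were chosen after their values were seen, as was the look at neighbours. For none of the other 9 Notch genes were more than 3 neighbours called in 1 direction in any of the 3 comparisons.

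**Figure D3:**
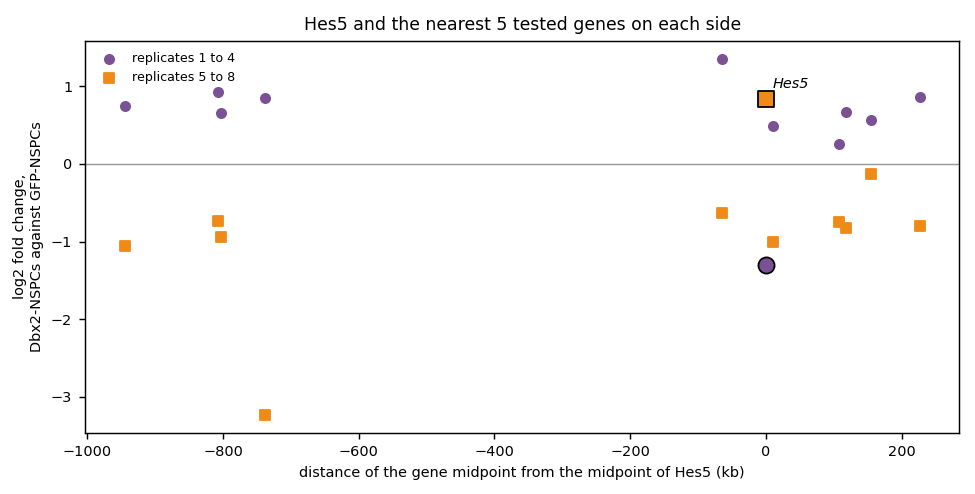
Log2 fold change (vertical axis) of Hes5 (large outlined symbols) and of the nearest 5 tested genes on each side, against the distance from Hes5 in kb (horizontal axis), for replicates 1 to 4 (purple circles) and 5 to 8 (orange squares). The neighbours lie above 0 in the first set and below 0 in the second, and Hes5 lies on the other side of 0 in both.

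*Hey1* lies on the minus strand of chr3:8663359-8667256. In replicates 1 to 4 it measured 75.74, 84.65, 89.93 and 78.65 CPM in *GFP*-NSPCs, compared with 61.32, 39.46, 40.38 and 32.65 CPM in *Dbx2*-NSPCs. Replicates 5 to 8 gave 52.09, 51.22, 54.30 and 48.53 CPM in *GFP*-NSPCs, compared with 61.24, 51.56, 69.52 and 57.06 CPM in *Dbx2*-NSPCs. All *Dbx2*-NSPC samples were below all *GFP*-NSPC samples in the first set, a separation found in one direction or the other for 19.6% of all genes, and the groups overlapped in the second. *Hey1* was downregulated in replicates 1 to 4 with a log2 fold change of -0.95 (SE 0.15, limma adjusted p = 3.92e-05), to 0.518 of the control level. In replicates 5 to 8 it was 0.21 (95% confidence interval -0.10 to 0.51, limma adjusted p = 0.363). The difference of 1.16 between the sets passed the test (SE 0.21, limma adjusted p = 3.90e-04), and both calls held in every alternative run. Over all samples it was -0.37 (limma adjusted p = 0.154). The *GFP*-NSPC mean was 82.2 ± 6.33 CPM in the first set and 51.5 ± 2.39 CPM in the second (SD, n = 4), a ratio of 1.60 without overlap. This separation of the control sets was found for 28.9% of all genes.

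*Hes1* lies on the plus strand of chr16:30064384-30067796. It measured 163.16, 119.21, 124.79 and 138.63 CPM in *GFP*-NSPCs, compared with 191.68, 117.46, 85.97 and 35.52 CPM in *Dbx2*-NSPCs of replicates 1 to 4. Its values in replicates 5 to 8 were 92.54, 117.17, 134.56 and 104.46 CPM in *GFP*-NSPCs, compared with 102.78, 124.56, 169.29 and 162.74 CPM in *Dbx2*-NSPCs. The groups overlapped in both sets, and *Dbx2*-NSPCs replicates 1 and 4 were the highest and the lowest of all 16 samples. The log2 fold change was -0.57 (95% confidence interval -1.16 to 0.03) and 0.30 (-0.29 to 0.90) in the sets and -0.13 over all samples, a sign that turned in edgeR and DESeq2, and none was called. Without *Dbx2*-NSPC replicate 1, the value in replicates 1 to 4 was -0.92 (limma adjusted p = 0.00926) and the difference between the sets was 1.23 (limma adjusted p = 0.0187). Without *Dbx2*-NSPC replicate 4 the first was -0.12 (limma adjusted p = 0.723). The value of replicates 5 to 8, fitted on that set alone, had a limma adjusted p of 0.182 without a replicate block and 0.0499 with one.

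*Dbx2*-NSPC replicate 1 was thus the highest *Dbx2*-NSPC sample of its set for *Hes1*, *Hes5*, *Hey1* and *Dll3*, and the lowest for *Maml3*. Astrocytes, another cell type that such cultures could hold, were examined through 5 markers. Their summed level was 330 to 525 CPM in *GFP*-NSPCs, compared with 182 to 260 CPM in *Dbx2*-NSPCs of replicates 1 to 4, and 243 to 319 against 121 to 177 CPM in replicates 5 to 8. Of the 5, *Aldh1l1* and *Gja1* were downregulated and *Gfap* was upregulated over all samples (limma adjusted p = 1.98e-04, 3.42e-04 and 3.54e-04), and *Aqp4* and *S100b* were not called. Of 3 ependymal markers, *Ccdc153* was upregulated over all samples (limma adjusted p = 0.0102). Its means in the 2 sets were 1.12 and 1.735 CPM in *GFP*-NSPCs, compared with 6.92 and 3.89 CPM in *Dbx2*-NSPCs. *Foxj1* was not called (limma adjusted p = 0.104), and *Tmem212* was at 0 CPM in every sample. The part of astrocyte-like or ependymal cells in these results was not tested.

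The rest of the pathway was followed with a list of 53 genes ordered by role, of which 46 were tested. Over all samples 6 were upregulated and 5 downregulated, 23.9% of those tested against 15.8% of all genes. The counts in replicates 1 to 4 were also 6 and 5, 23.9% against 20.5% of all genes. They were 7 and 6 in replicates 5 to 8, 28.3% against 20.7%. The ligand *Dll4* was 1 of the 6 upregulated over all samples and 1 of the 7 in replicates 5 to 8. As *Dll4* passed the filter only through its values in *Dbx2*-NSPCs, its calls are no support for a change, though these shares include them. The difference between the sets was called for 6 of the 46, 13.04% against 9.44%. The median log2 fold change of the list was 0.02 over all samples. *Hes2* and *Heyl* were at 0 CPM in every sample, and *Jag2*, *Dlk1*, *Dlk2*, *Hes3* and *Hey2*, which reached at most 3.71 CPM, did not pass the filter.

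**Figure D4:**
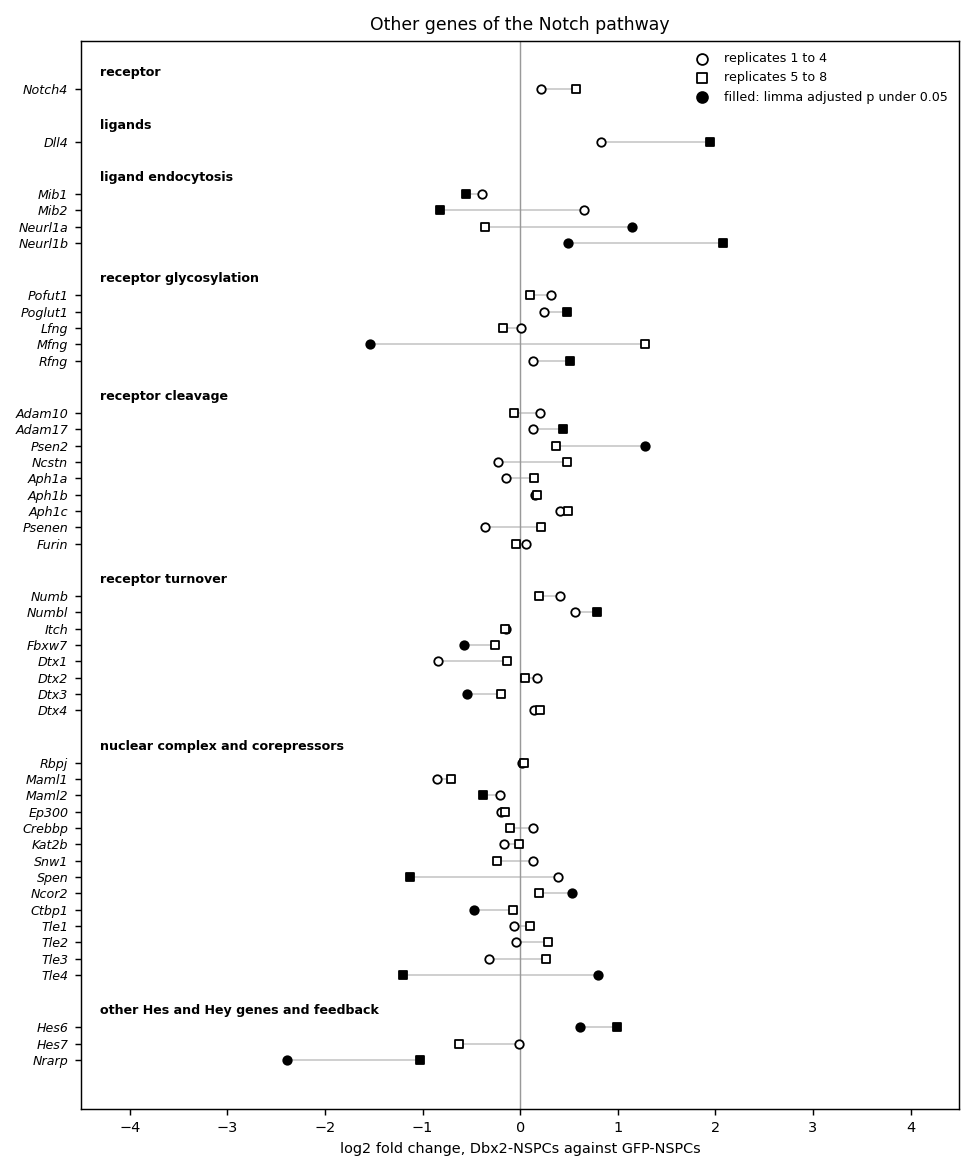
Log2 fold change (horizontal axis) of further Notch pathway genes, ordered by role, between Dbx2-NSPCs and GFP-NSPCs in replicates 1 to 4 (circles) and 5 to 8 (squares), with a grey line joining the sets. Filled symbols passed a limma adjusted p of 0.05. Nrarp lies left of 0 in both sets, Hes6 and Neurl1b lie right of 0 in both, and Tle4 has filled symbols on both sides.

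Among feedback genes, *Nrarp*, a Notch target whose product destabilizes the nuclear Notch complex, was downregulated in both sets. In replicates 1 to 4 it measured 9.67, 26.10, 26.72 and 31.32 CPM in *GFP*-NSPCs, compared with 2.25, 5.77, 3.58 and 3.95 CPM in *Dbx2*-NSPCs. The second set measured 22.72, 22.08, 15.37 and 13.98 CPM in *GFP*-NSPCs, compared with 6.34, 9.63, 13.54 and 6.75 CPM in *Dbx2*-NSPCs. The groups did not overlap within either set, as for 19.6% of all genes in replicates 1 to 4 and 24.8% in replicates 5 to 8, each in either direction. The log2 fold change was -1.71 over all samples (SE 0.30, limma adjusted p = 6.30e-04), -2.39 in replicates 1 to 4 (limma adjusted p = 7.63e-06) and -1.02 in replicates 5 to 8 (limma adjusted p = 0.0266). The difference of 1.36 between the sets was not called (limma adjusted p = 0.0650).

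*Hes6*, a Hes family member known to oppose Hes1 and to favour neuronal differentiation, was upregulated in both sets. It averaged 130 CPM in *GFP*-NSPCs, compared with 198 CPM in *Dbx2*-NSPCs of replicates 1 to 4, and 142 against 286 CPM in replicates 5 to 8. The lowest *Dbx2*-NSPC value, 168 CPM, was above the highest *GFP*-NSPC value, 154 CPM, a separation found for 3.41% of all genes (1.60% in this direction). The log2 fold change was 0.80 over all samples (SE 0.12, limma adjusted p = 1.53e-04), with 0.61 and 0.99 in the sets, whose difference was not called (limma adjusted p = 0.168). Calls in the same direction in both sets were made for 7.40% of all genes and for 3 of the 46, *Nrarp*, *Hes6* and *Neurl1b*.

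*Neurl1b* encodes a ubiquitin ligase that acts on Notch ligands. It averaged 153 against 216 CPM in replicates 1 to 4 and 36.1 against 160 CPM in replicates 5 to 8 (*GFP*-NSPCs against *Dbx2*-NSPCs), with log2 fold changes of 0.49 (limma adjusted p = 0.0342) and 2.08 (limma adjusted p = 7.79e-10) that differed by 1.58 (limma adjusted p = 2.82e-05). *Mib1*, the ubiquitin ligase that drives the endocytosis of Notch ligands, was downregulated over all samples by limma (log2 fold change -0.47, adjusted p = 0.0142). *Mib2* and *Neurl1a*, of the same kinds, were not called over all samples, and their fold changes differed between the sets by -1.47 and -1.51 (limma adjusted p = 0.00609 and 6.76e-05).

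Of the genes that modify or cut the receptor, *Poglut1*, a glucosyltransferase, had a log2 fold change of 0.36 over all samples (limma adjusted p = 0.00708). *Psen2*, a catalytic subunit of gamma-secretase, had 0.82 (limma adjusted p = 0.0415), and the other genes of receptor cleavage shown, among them *Adam10* and *Adam17*, were not called over all samples. In receptor turnover, *Numbl*, a relative of the Notch inhibitor Numb, was upregulated by limma (log2 fold change 0.67, adjusted p = 0.0268). *Fbxw7*, which marks the intracellular domain for degradation, was downregulated by limma (-0.42, adjusted p = 0.00631), as was *Dtx3*, a Deltex ligase (-0.37, adjusted p = 0.0234). The ligand *Dll4* was called over all samples (limma adjusted p = 0.0159) at a very low level. It passed the filter only through its values in *Dbx2*-NSPCs, so the call is no support for a change. It was at 0 CPM in 7 of 8 *GFP*-NSPC samples and at most 2.80 CPM in *Dbx2*-NSPCs, so no fold is given.

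*Tle4*, a Groucho-type corepressor that Hes proteins recruit, had opposite calls in the sets. It averaged 72.6 CPM in *GFP*-NSPCs, compared with 126 CPM in *Dbx2*-NSPCs of replicates 1 to 4, and 233 against 101 CPM in replicates 5 to 8. The log2 fold changes were 0.80 (limma adjusted p = 6.86e-06) and -1.20 (limma adjusted p = 8.48e-09), and the difference was -1.997 (limma adjusted p = 1.60e-09). The *Dbx2*-NSPC means lay closer to each other than the *GFP*-NSPC means, as they also did for *Dll3* and *Hes5*.

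Genes whose log2 values over the 16 samples were most like those of a Notch gene were sought among 8939 genes of at least 10 CPM in a group. The samples share the transgene and the replicate set, so the correlations are descriptions. *Maml3* was most like *Casq2* (Pearson r = 0.952) and *Chpf* (0.9502), with *Casq2*, the calsequestrin of cardiac muscle, at log2 fold changes of 2.91 and 2.53 in the sets. *Dll3* was most like *Nlgn3*, a synaptic adhesion gene (r = 0.938), and *Miat*, a long noncoding RNA (0.907), both with a value below 0 in replicates 1 to 4 (-1.76 and -1.11) and above 0 in replicates 5 to 8 (4.01 and 3.21). *Jag1* was most like *Ets2* (r = 0.951) and *Nav2* (0.940). For *Hes5* they were *Nudt19* and *Ddhd1* (r = 0.897 and 0.895), for *Hey1* *Lhfpl2* and *Car2* (0.899 and 0.890), and for *Hes1* *Sdf2* and *Fh1* (0.917 and 0.915). For *Notch1* they were *Pgpep1* and *Miga1* (r = 0.907 and 0.878), for *Notch2* *Ulk1* and *Tgif2* (0.921 and 0.897), for *Notch3* *Sept8* and *Sema6a* (0.875 and 0.871), and for *Dll1* *Sema4b* and *Tmem185a* (0.832 and 0.797).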

How the data were processed

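Total RNA of 16 NSPC cultures, 8 per transgene, had been made into QuantSeq 3′ libraries from 100 ng each and sequenced in single-end mode at 101 bp. Per the paper's methods and the submitters' processing notes, reads were aligned with STAR 2.5.0a to GRCm38. The counting tool and strand are not given in the sources used here. The authors deposited CPM, scaled to each sample's total. 99.99% of the values were whole reads within 0.01 CPM, which gave the totals, and 0 sample columns were left unused. Intervals on reads cover counting error only. No pair of libraries agreed within sampling noise (lowest chi-square per degree of freedom 2.36).

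Samples were grouped by the transgene in the labels. As no label gives the line of a sample, no line covariate was fitted. limma 3.58.1 (R 4.3.3; eBayes with trend) tested log2(CPM + 0.5), 2-sided, over all samples, and within and between the replicate sets in 1 fit of 4 groups. The p-values measure the spread between these cultures, which are repeats of few lines, and not the spread between independently made lines. Alternatives were other pseudocounts, filters and scalings, the replicate block, the replicate set as a covariate, edgeR 4.0.16 and DESeq2 1.42.0 on the whole reads, and each sample left out. Scripts were tested on simulated data.

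For the pairing, the replicate numbers come from the labels. Deviations from group means of same-numbered samples correlated at 0.152 to 0.303, over the limit of 0.1 set for pairing in 8 of 8 pairs. However, other numbers of the same set correlated at 0.199 on average, and after removing set means 1 of 8 pairs was over 0.1. These values do not settle whether the samples are paired. The main fits hold no replicate block, and the block was run as an alternative.

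The Notch genes, the pathway and marker lists and the replicate sets were chosen with earlier results of these data known. The rule for named genes takes the Notch genes, *Dbx2*, the pathway genes called over all samples or in both sets, and the 2 genes most like each Notch gene. Markers are named for the check of cell types, and the neighbours of *Hes5* and the pathway genes that differed between the sets were added after their values were seen. Positions are from GENCODE M21 and promoters from RefSeq, whose starts can differ. A gene of the pathway list is not reported here.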

Additional observations from a re-analysis of the deposited data

Results flagged for a closer look

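Within groups of 4 or 8 samples, 4 of 60 groups held a sample far from the others by Dixon's test, where chance gives about 1 in 20. These were *GFP*-NSPC replicate 5 for *Notch1* (189.5 CPM, among all 8 samples), *Dbx2*-NSPC replicate 1 for *Dll3* (12.84 CPM, among replicates 1 to 4) and for *Hes5* (208.1 CPM, among all 8), and *GFP*-NSPC replicate 3 for *Maml3* (1.3 CPM, the only one of replicates 1 to 4 above 0).

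The log2 fold change between the transgene groups differed between the replicate sets by limma's test of the difference (replicates 5 to 8 less replicates 1 to 4) for *Dbx2* (1.447), *Dll3* (3.174), *Hes5* (2.147) and *Hey1* (1.155). Of the pathway list it did so for *Mfng* (2.818), *Neurl1b* (1.585), *Mib2* (-1.475), *Neurl1a* (-1.51), *Spen* (-1.509) and *Tle4* (-1.997).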

How the results depend on the processing

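Of 920 recomputed log2 fold changes of the 10 Notch genes, 870 kept their direction and side of the threshold, 9 fell short of it, 15 came to pass it and 26 changed sign. None of the 239 recomputations of the 11 results past the threshold changed sign. Over all samples, 2 Notch genes instead of 1 were called, *Notch1* being the second, with median-of-ratios or quantile scaling, edgeR, DESeq2, the replicate block, the replicate set as a covariate, and edgeR with that covariate (added after the data were seen), and 1 to 2 when a sample was left out. In replicates 5 to 8 fitted alone, 4 were called, *Hes5* being the addition (adjusted p = 0.0371), and 5 with the replicate block as well, which added *Hes1*; 3 were called in each fit with a sample left out. In replicates 1 to 4 fitted alone, 3 were called without the block and 3 with it, which lost *Dll3* (0.0302 without, 0.0635 with) and gained *Hes5* (0.0602 without, 0.0355 with). In the fits of all samples and of the difference between the sets, the block changed no call of the 10 genes besides that of *Notch1* over all samples. All genes called numbered 3034 with the replicate set as a covariate and 2723 with the replicate block, against 1982. *Hes5* in replicates 1 to 4 also missed the threshold without the trend (adjusted p = 0.0662), and its difference between the sets did so without the trend (0.0587) and in DESeq2 (1.83, adjusted p = 0.0949). Signs over all samples turned for *Dll3* (-0.13 in edgeR, -0.11 in DESeq2, -0.000444 to 0.50 when a sample was left out), *Hes1* (0.010 in edgeR, 0.014 in DESeq2, 0.0066 in edgeR with the set; -0.24 to 0.10), *Jag1* (0.0084 and 0.0089 with median-of-ratios and quantile scaling; -0.13 to 0.094) and *Notch3* (0.000586 in DESeq2; -0.14 to 0.071). The *Maml3* difference between the sets turned to -1.12 with a pseudocount of 0.1, -0.21 in edgeR and -0.32 in DESeq2 (-0.32 to 0.37 when a sample was left out). The causes were not tested. Depth limits *Maml3* in *GFP*-NSPCs, where a library held at most 5 reads, and *Dll3* in *GFP*-NSPCs replicates 5 to 8.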
